A study of Homo sapiens with 6 samples.

Results

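The 9 genes described here are HLA-B, HLA-C, HLA-E, HLA-F, B2M, TAP1, TAP2, TAPBP and NLRC5, the HLA class I heavy chains and the genes that complete, load and regulate them, taken by gene name from a table of 27104 genes. They were measured by RNA sequencing in OVCAR3 cells, an established line from a human ovarian cancer, at passages 20 to 25. Of the 6 libraries, 3 came from cells given an empty vector and 3 from cells given a vector meant to overexpress DAB2IP (labelled O/E), a Ras GTPase-activating protein; the cells carry no other label of genotype or agent. The labels give triplicate transfections and say nothing more on how separate the cultures were. The p-values thus reflect library-to-library spread that could in part be technical.

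A class I molecule is a heavy chain paired with the light chain beta-2-microglobulin, and it shows peptides from inside the cell to CD8 T cells and to natural killer cells at the cell surface. Peptides cut by the proteasome are pumped into the endoplasmic reticulum by the TAP transporter, a dimer of TAP1 and TAP2, and tapasin (TAPBP) holds an empty class I molecule next to that pump until a peptide binds. NLRC5 is a transactivator that works at class I promoters, and interferons raise most of these genes in many cell types.

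DAB2IP, the gene the vector carries, went against the labels. Its level was 7.49, 7.76 and 8.01 FPKM in empty vector libraries 1 to 3, against 5.74, 5.02 and 5.73 FPKM in the libraries labelled DAB2IP O/E. This is a log2 change of -0.43 (SE 0.06; limma, adjusted p = 0.00548), lower in all 3 libraries that should hold more. Every direction given for the 9 genes is therefore one between libraries as labelled. FPKM are fragment counts scaled to exon length and to library size. The length used takes in all annotated exons of a gene, 6089 bases for B2M against 2507 for HLA-C. Levels compared between genes therefore depend in part on the annotation. Libraries held 20445867 to 35434533 reads assigned to genes. One extraction label names adipocytes. All 8 adipocyte markers were absent from the table or low, summing to 0.514 to 0.644 FPKM in the empty vector libraries and 0.468 to 0.597 FPKM in the others. Leukocytes are rich in class I molecules. Of 12 leukocyte markers 5 were listed, they summed to 2.90 to 3.44 and 2.55 to 3.33 FPKM, and PTPRC, the pan-leukocyte CD45 gene, was near 0 in both groups (means 0.00540 and 0.0158 FPKM). Of the 5 listed, 2 averaged at least 1 FPKM. Markers of ovarian cancer epithelium summed to 862 to 908 FPKM with the empty vector and 1137 to 1193 FPKM in the libraries labelled O/E. Of these 9 markers 3 were called higher and 1 lower, against 9.29% and 9.17% of all genes tested. The part of the difference between these sums in the class I results was not tested.

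Levels of the 9 genes in FPKM spanned more than 2 orders of magnitude and kept a fixed order. Mean levels over the 6 libraries ran from B2M (71.8 FPKM) through HLA-E (49.8), HLA-C (40.3), TAPBP (16.0), HLA-B (10.0), TAP2 (6.81), TAP1 (2.82) and NLRC5 (0.374) to HLA-F (0.212). No gene's range over the 6 libraries overlapped that of the next gene in this order. B2M stood above 95.9% of the 14761 genes tested, HLA-B above 65.9% and TAP1 above 27.8%. The classical heavy chain HLA-B was thus listed at a lower level than the non-classical HLA-E. HLA genes are near-identical copies that vary between people, and how the reads of this line's own alleles were divided among them is not given in the sources used here, so levels of single HLA genes are uncertain.

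**Figure D1:**
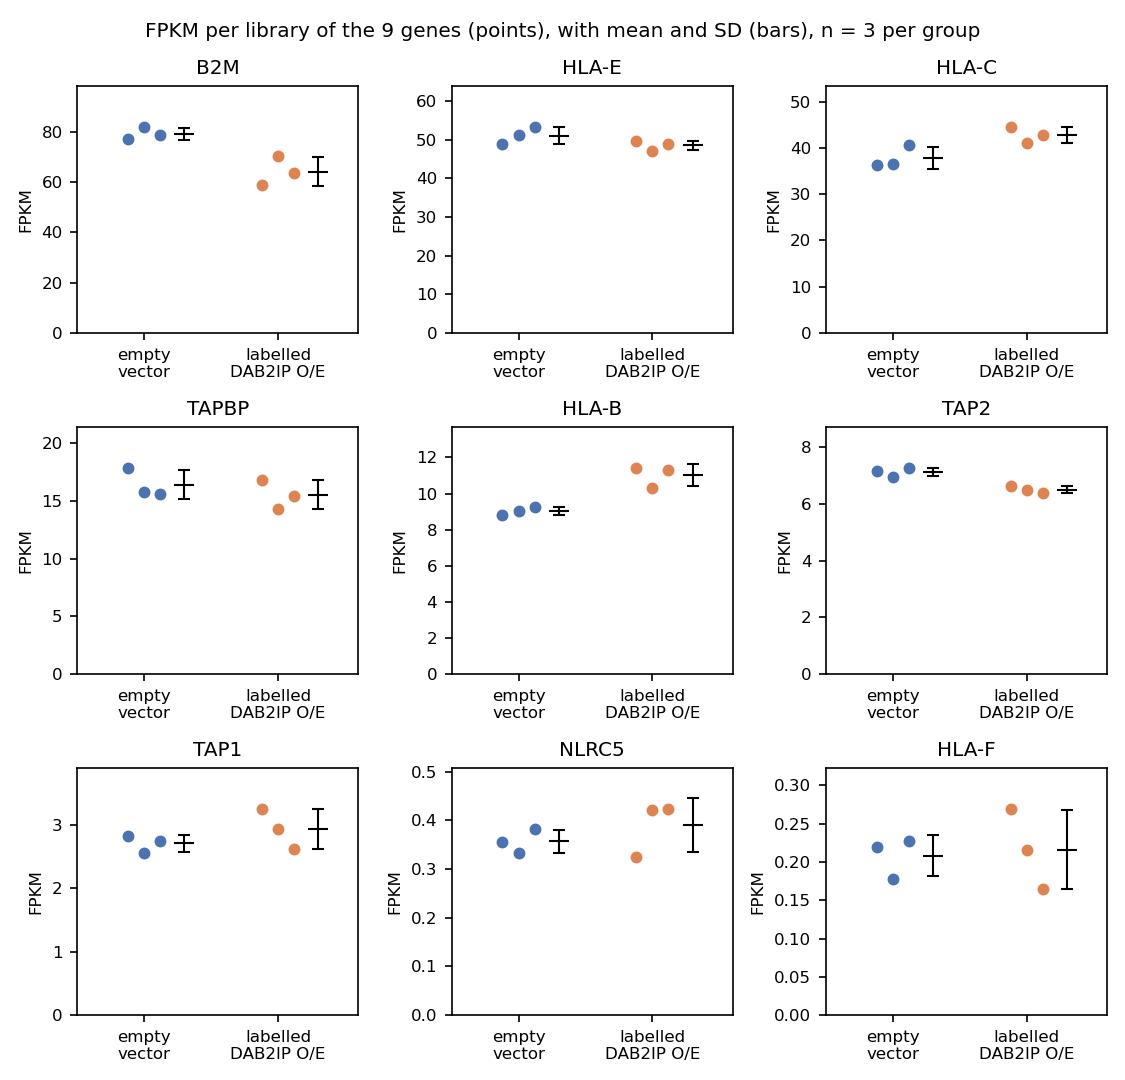
FPKM (vertical axes, linear from 0) of each of the 9 genes in the 3 empty vector libraries (blue points) and the 3 libraries labelled DAB2IP O/E (orange points), in replicate order, with the mean and SD of each group as black bars. The groups stand apart for B2M, HLA-C, HLA-B and TAP2 and overlap for the other genes.

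Between the groups, HLA-B rose and B2M fell, by 21.9% and by 19.0% of the mean FPKM, and the other members tested did not pass the threshold in either direction. A gene was tested where its mean was at least 1 FPKM, by limma on log2(FPKM + 1) over all 6 libraries, with Benjamini-Hochberg adjustment over all genes tested and a threshold of 0.05. Of the 9 genes 7 were tested; 1 was called higher and 1 lower. Among all genes tested 18.5% were called, 9.29% higher and 9.17% lower in the libraries labelled O/E, so 2 of 7 is a count that says little about the class I genes as a group. Group ranges in FPKM did not overlap for 4 of the 7, against 40.4% of all genes tested. The median log2 change of the 7 was -0.07, beside -0.00 over all genes tested. The authors' deposited table called the same 2 of the 9 at an adjusted p under 0.05, HLA-B higher and B2M lower, where 19% of its genes were called, 9.73% higher and 9.26% lower. Limma-voom on whole reads recovered from the FPKM called these and HLA-C, against 23.3% of the genes it tested.

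HLA-B encodes a classical heavy chain that presents peptides to CD8 T cells. It was at 8.82, 9.02 and 9.25 FPKM in the empty vector libraries and at 11.4, 10.3 and 11.3 FPKM in the libraries labelled O/E. Every O/E-labelled library lay above every empty vector library, and replicate 2 lay closest to them. The means were 9.03 ± 0.215 and 11.01 ± 0.616 FPKM (SD, n = 3 each), 21.9% higher, a log2 change of 0.26 (SE 0.05, 95% interval 0.13 to 0.39; limma, adjusted p = 0.0193). The authors' deposited table gave a log2 fold change of 0.29 with an adjusted p of 0.00742. These values rest on 537 to 1251 reads a library. The call was lost without O/E-labelled replicate 1 (log2 change 0.24, adjusted p = 0.0645), without O/E-labelled replicate 3 (0.24, 0.0859) and without empty vector replicate 2 (0.26, 0.0661), at about the same size. HLA-B (chr6:31269491-31357188, minus strand, GRCh38) shares 17.8% of its exon bases with AL671883.2 on the other strand and 1.15% with HLA-C, and strand use in counting is not given in the sources used here.

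HLA-C, a classical heavy chain that is also a ligand of inhibitory KIR receptors on natural killer cells, was at 36.2, 36.6 and 40.7 FPKM with the empty vector and at 44.5, 41.0 and 42.8 FPKM in the libraries labelled O/E. The groups did not overlap, but empty vector replicate 3 came within a fraction of an FPKM unit of O/E-labelled replicate 2. The log2 change was 0.17 (SE 0.06, 95% interval 0.04 to 0.31; limma, adjusted p = 0.0809), past no threshold. It passed without empty vector replicate 3 (log2 change 0.23, adjusted p = 0.0345) and in limma-voom (0.18, 0.0482), and did not pass in the authors' deposited table (adjusted p = 0.0572). HLA-C lies at chr6:31268749-31272130 on the minus strand.

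HLA-E binds mainly the leader peptides of other class I chains and is read by the NKG2A receptor of natural killer cells. Its levels were 48.8, 51.1 and 53.2 FPKM with the empty vector and 49.5, 47.2 and 48.8 FPKM in the libraries labelled O/E, with overlapping groups. Its log2 change was -0.07 (95% interval -0.19 to 0.04; limma, adjusted p = 0.326). HLA-F, a non-classical chain linked to natural killer receptors, was listed at 0.177 to 0.227 FPKM and 0.165 to 0.269 FPKM, or 17 to 42 reads a library, and was not tested. The authors' deposited table gave it a log2 fold change of 0.07 with a standard error of 0.39 (adjusted p = 0.946), so a small change would not be seen at this depth.

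B2M encodes the light chain shared by every classical class I molecule, on chromosome 15 rather than in the HLA region (chr15:44711477-44718877, plus strand). It was at 77.1, 81.9 and 78.9 FPKM with the empty vector and at 58.8, 70.4 and 63.5 FPKM in the libraries labelled O/E. All 3 O/E-labelled libraries were below all 3 empty vector libraries, replicate 1 furthest and replicate 2 least. Means were 79.3 ± 2.41 and 64.2 ± 5.85 FPKM (SD, n = 3 each), a log2 change of -0.30 (SE 0.07, 95% interval -0.47 to -0.14; limma, adjusted p = 0.0254), from 9370 to 13623 reads a library. In bulk RNA, fewer cells that express a gene and less RNA per cell cannot be told apart. The authors' deposited table gave the same log2 fold change with an adjusted p of 0.000155. The call was lost without O/E-labelled replicate 1 (log2 change -0.24, adjusted p = 0.0683), without O/E-labelled replicate 3 (-0.30, 0.0913) and without empty vector replicate 2 (-0.28, 0.0871). Of the 103 genes tested in the 10 Mb of chromosome 15 that hold B2M, 19 were called lower and 3 higher, with a median log2 change of -0.09. Over all genes tested 9.17% were called lower and 9.29% higher. The part of the neighbourhood in the B2M result was not tested. In the 10 Mb of chromosome 6 that hold HLA-B, HLA-C, HLA-E, TAP1, TAP2 and TAPBP, 9 of 163 genes were called higher and 3 lower, with a median of -0.01.

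**Figure D2:**
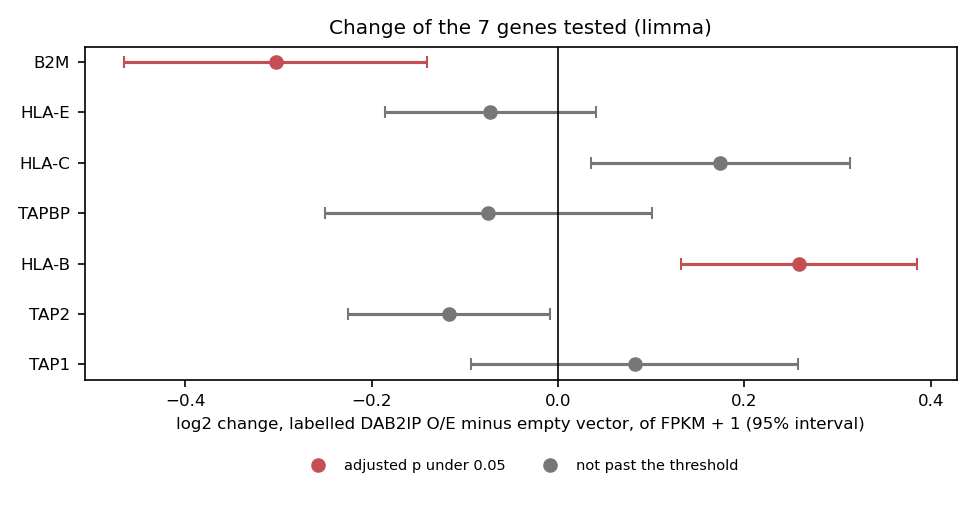
Log2 change of FPKM + 1 (horizontal axis, libraries labelled DAB2IP O/E minus empty vector) of the 7 genes tested with 95% intervals from limma, ordered by level; red marks an adjusted p under 0.05. B2M lies below 0 at -0.30 and HLA-B above 0 at 0.26, and the intervals of HLA-E, TAPBP and TAP1 include 0.

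Set against B2M, the heavy chains stood higher in the libraries labelled O/E. The summed FPKM of HLA-B, HLA-C, HLA-E and HLA-F was 98.1 ± 4.74 with the empty vector and 102 ± 3.51 in the libraries labelled O/E (SD, n = 3 each), with overlapping groups. Divided by B2M, the sum was 1.22, 1.18 and 1.31 in the empty vector libraries and 1.80, 1.40 and 1.62 in the libraries labelled O/E. The ratios did not overlap, with means of 1.24 ± 0.0650 and 1.61 ± 0.198; as a score over these genes the ratio was given no test. Because it is a ratio within a library, it does not depend on how libraries were scaled. Its size does depend on the exon length given to each gene.

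The promoters of HLA-B, HLA-C, HLA-F and B2M are shown because class I genes are known to be driven together through common promoter elements. HLA-B and B2M, the 2 genes called, moved in opposite directions here. Classically these are an NF-kB site, an interferon-stimulated response element (ISRE), and the SXY module, in which the X2 box binds CREB or ATF proteins, the Y box binds NF-Y, and RFX proteins and NLRC5 join the assembly. RefSeq promoter sequences (GRCh38.p14) matched 7 of the 9 genes by symbol, and HLA-E and NLRC5 were not matched. The 250 bases before the annotated start follow, 5′ to 3′ on the gene's strand, for HLA-B (chr6:31357180-31357429, minus), HLA-C (chr6:31272093-31272342, minus), HLA-F (chr6:29723184-29723433, plus) and B2M (chr15:44711267-44711516, plus). Capitals mark matches on either strand to CCAAT (the NF-Y core, read as ATTGG on the other strand), TGACG (the core of X2), TTTCNNTT (an ISRE core) and an NF-kB motif (GGG, then 2 bases of any kind, TT, 1 base of any kind and CC).
HLA-B: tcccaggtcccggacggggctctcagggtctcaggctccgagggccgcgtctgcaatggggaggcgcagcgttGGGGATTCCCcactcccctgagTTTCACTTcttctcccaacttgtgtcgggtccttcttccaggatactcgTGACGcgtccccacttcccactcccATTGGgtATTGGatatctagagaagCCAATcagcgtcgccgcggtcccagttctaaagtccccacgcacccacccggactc
HLA-C: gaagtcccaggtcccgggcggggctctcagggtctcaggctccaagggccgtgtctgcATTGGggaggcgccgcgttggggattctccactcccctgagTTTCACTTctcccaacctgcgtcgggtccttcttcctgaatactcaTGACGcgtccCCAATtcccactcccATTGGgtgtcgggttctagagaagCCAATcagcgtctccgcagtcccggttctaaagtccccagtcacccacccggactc
HLA-F: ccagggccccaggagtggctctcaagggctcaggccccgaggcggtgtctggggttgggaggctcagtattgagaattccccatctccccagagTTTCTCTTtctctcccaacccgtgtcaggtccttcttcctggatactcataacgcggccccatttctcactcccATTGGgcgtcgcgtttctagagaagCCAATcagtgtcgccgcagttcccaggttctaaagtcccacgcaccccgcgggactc
B2M: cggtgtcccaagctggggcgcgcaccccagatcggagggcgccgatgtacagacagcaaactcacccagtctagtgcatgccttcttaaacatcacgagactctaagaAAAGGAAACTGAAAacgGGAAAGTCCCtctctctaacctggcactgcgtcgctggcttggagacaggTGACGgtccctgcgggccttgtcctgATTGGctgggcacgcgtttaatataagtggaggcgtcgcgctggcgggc

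The heavy chain promoters were alike and B2M was not. HLA-B and HLA-C were identical at 89% of aligned positions, HLA-B and HLA-F at 80.4% and HLA-C and HLA-F at 78.7%, against 49.2% to 51.4% for each of them with B2M. TGACG followed after 18 to 22 bases by ATTGG, the order of X2 and Y, was in the windows of HLA-B, HLA-C and B2M and in 0.248% of 35116 RefSeq promoter windows of the same length. Of these 3 genes HLA-B rose, HLA-C did not pass the threshold and B2M fell. The part of the motifs in these changes was not tested. Of the 8 windows of the matched genes (TAP1 has 2 annotated starts), CCAAT was in 5, TGACG in 4, the ISRE core in 7 and the NF-kB letters in 4. Over all windows these stood in 32%, 21.2%, 20.3% and 5.07%. The NF-kB letters were in HLA-B and B2M, and not in the HLA-C or HLA-F window. The HLA-F window had no TGACG either. A match is a run of letters, not a site shown to be bound.

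**Figure D3:**
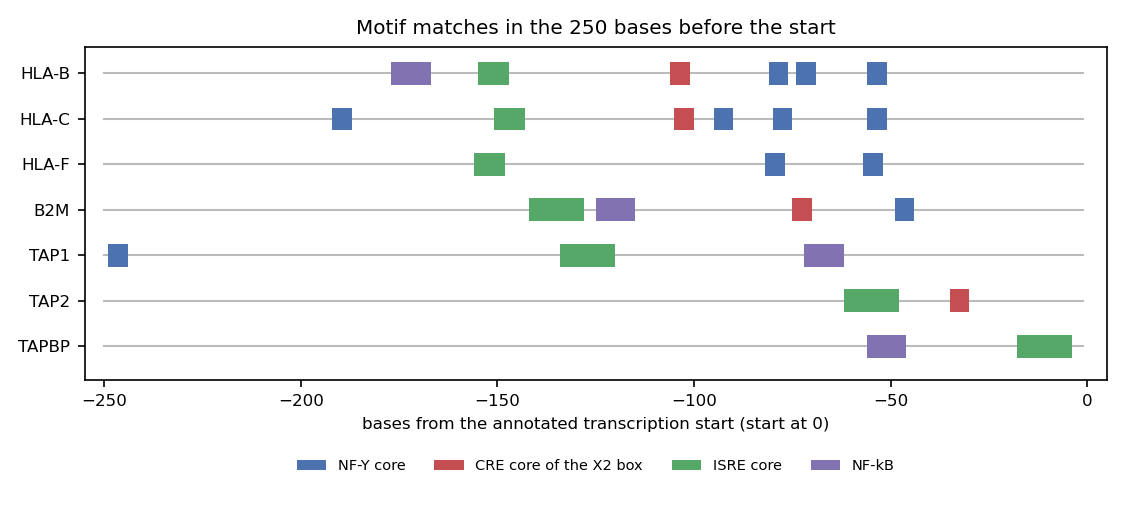
Motif matches (coloured boxes, to scale) in the 250 bases before the annotated start (horizontal axis, bases from the start) of 7 of the genes. HLA-B, HLA-C and HLA-F each carry 1 ISRE core match and a pair of NF-Y matches at nearly the same distances, HLA-B and HLA-C carry further NF-Y matches that do not line up, and the matches of B2M lie closer to its start.

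Neither subunit of the peptide transporter passed the threshold. TAP2 was at 7.15, 6.96 and 7.25 FPKM with the empty vector and at 6.62, 6.48 and 6.37 FPKM in the libraries labelled O/E, lower in each of the latter, with a log2 change of -0.12 (SE 0.05, 95% interval -0.23 to -0.01; limma, adjusted p = 0.120). TAP1 was at 2.82, 2.56 and 2.74 FPKM and at 3.25, 2.93 and 2.62 FPKM, with overlapping groups and a log2 change of 0.08 (SE 0.07, 95% interval -0.09 to 0.26; limma, adjusted p = 0.474). TAP1 counts were the smaller of the pair, 258 to 535 reads a library against 912 to 1521 for TAP2. The ratio of TAP1 to TAP2 FPKM was 0.395, 0.369 and 0.378 with the empty vector and 0.491, 0.453 and 0.411 in the libraries labelled O/E, which do not overlap; it was not tested. AL669918.1 on the same strand shares 32.3% of the exon bases of TAP2, and PSMB8-AS1 on the other strand shares 9.49% of those of TAP1, so both levels can hold reads of a neighbour.

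TAPBP, the tapasin bridge between transporter and heavy chain, was at 17.8, 15.8 and 15.6 FPKM with the empty vector and 16.8, 14.3 and 15.5 FPKM in the libraries labelled O/E. The groups overlapped, and replicate 1 was the highest in both. Its log2 change was -0.07 (SE 0.07, 95% interval -0.25 to 0.10; limma, adjusted p = 0.512). NLRC5 was low throughout, at 0.356, 0.333 and 0.382 FPKM with the empty vector and 0.326, 0.422 and 0.423 FPKM in the libraries labelled O/E, from 88 to 151 reads a library. It was under the limit of 1 FPKM and was not tested; the authors' deposited table gave a log2 fold change of 0.12 (standard error 0.19, adjusted p = 0.744). In limma-voom on recovered reads, which tests NLRC5 too, its log2 change was 0.09 (adjusted p = 0.692).

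The genes whose pattern over the 6 libraries was most like that of HLA-B, by the smallest root mean square difference of centred log2 levels, were CENPX, a centromere protein gene, SLC35C2 and FURIN, a protease of the secretory pathway. The differences were 0.0160, 0.0186 and 0.0193 log2 units. No other class I gene was among these 3, which says little, as only the 3 nearest of 14761 genes tested were listed.

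Around the members, lists of 127 further pathway genes in the table gave 107 tested, of which 9 were called higher and 13 lower, with a median log2 change of -0.02. Over all genes tested 9.29% were called higher and 9.17% lower, so this count is near that of any genes. The lists were chosen with earlier results of these data known and are described by counts only. Among 12 loading chaperones and trimming enzymes, only the lectin chaperone gene CANX was called, lower (201 ± 5.14 to 178 ± 6.91 FPKM, SD, n = 3 each; log2 change -0.18; limma, adjusted p = 0.0442), and the median was -0.07. Its call held in just 1 of 6 fits that each left out 1 library, with adjusted p from 0.0485 to 0.166, and was lost without every library except O/E-labelled replicate 2, as well as without a mean-variance trend (0.0579) and without the filter on low values (0.0760). CALR, the calreticulin of the loading complex (log2 change -0.00; limma, adjusted p = 0.971), PDIA3, its disulfide isomerase partner (-0.10, 0.272), and ERAP1, which trims peptides (-0.04, 0.683), did not pass. HSPA5, the general chaperone BiP, was at 221 ± 23.6 and 260 ± 9.39 FPKM (limma, adjusted p = 0.0772). HSPA5 passed in limma-voom (0.0116), in the authors' deposited table (0.00894) and in limma without empty vector replicate 1 (0.0109).

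Of the 6 immunoproteasome and PA28 genes, whose products shape peptides for class I, 2 were called lower and none higher, where 9.17% of all genes tested were called lower, with a median log2 change of -0.17. A count this small says nothing particular of the list. PSMB8, a catalytic subunit, fell from 18.3 ± 1.05 to 14.9 ± 0.517 FPKM (SD, n = 3 each; log2 change -0.28, SE 0.06; limma, adjusted p = 0.0157), a call lost without O/E-labelled replicates 1 (0.0556) or 3 (0.0723). PSME1, a subunit of the PA28 activator, fell from 118 ± 4.80 to 103 ± 4.69 FPKM (-0.19; limma, adjusted p = 0.0457). That call was lost without O/E-labelled replicates 1 (0.138) or 3 (0.145) and without empty vector replicates 2 (0.119) or 3 (0.0968), and also without a trend (0.0624) or the filter (0.0721). Its partner PSME2 (-0.15; limma, adjusted p = 0.0608), PSMB10 (0.02, 0.924) and PSMB9 (-0.24, 0.112) did not pass. PSMB9 starts 488 bases from TAP1, head to head with it. PSMB9 was at 1.57 ± 0.277 and 1.17 ± 0.0698 FPKM (SD, n = 3 each). PSMB8 shares 20.6% of its exon bases with PSMB8-AS1 on the other strand, and PSMB10 shares 34.8% with AC040162.1 on its own.

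As a share of itself and the constitutive subunit it replaces, PSMB8 was 21.9%, 21.0% and 21.6% with the empty vector and 17.97%, 18.6% and 17.8% in the libraries labelled O/E. PSMB9 was 3.84%, 2.88% and 3.60% against 2.57%, 2.54% and 2.78%. Both sets of shares stood apart between the groups, with a raw p of 0.1 by a 2-sided exact permutation test, the smallest that 3 against 3 allows, and 0.15 adjusted over 3 shares. PSMB10 was 10.7% ± 1.21 and 10.9% ± 0.719 (exact permutation p = 0.9), with overlapping groups. These are shares of FPKM, so their size depends on the exon length given to each gene. With recovered reads the PSMB9 difference was -1.61 percentage points in place of -0.811, and that of PSMB8 was -3.65 in place of -3.39. The constitutive partners PSMB5 (log2 change 0.01; limma, adjusted p = 0.901), PSMB6 (-0.03, 0.701) and PSMB7 (-0.01, 0.854) did not pass; the sign of PSMB5 and of PSMB10 is negative when libraries are scaled to equal medians. Of 14 constitutive proteasome genes 2 were called higher, against 9.29% of all genes tested, with a median log2 change of 0.01. These were the structural subunits PSMA6 (log2 change 0.25, limma, adjusted p = 0.0267) and PSMB4 (0.25, 0.0290). Without 1 library, PSMA6 was still called in 2 of 6 fits (0.0367 to 0.0942; lost without O/E-labelled replicates 2 or 3 and empty vector replicates 1 or 2) and PSMB4 in 1 of 6 (0.0132 to 0.09995; kept only without empty vector replicate 3). Without the filter the PSMB4 call was lost too (0.0547). PSMA7 did not pass, by a small margin (log2 change 0.22; limma, adjusted p = 0.0503). It was called higher in limma-voom (0.0117), in the authors' deposited table (0.00702), in limma with a filter of 5 FPKM (0.0387) and with a robust trend (0.0487).

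**Figure D4:**
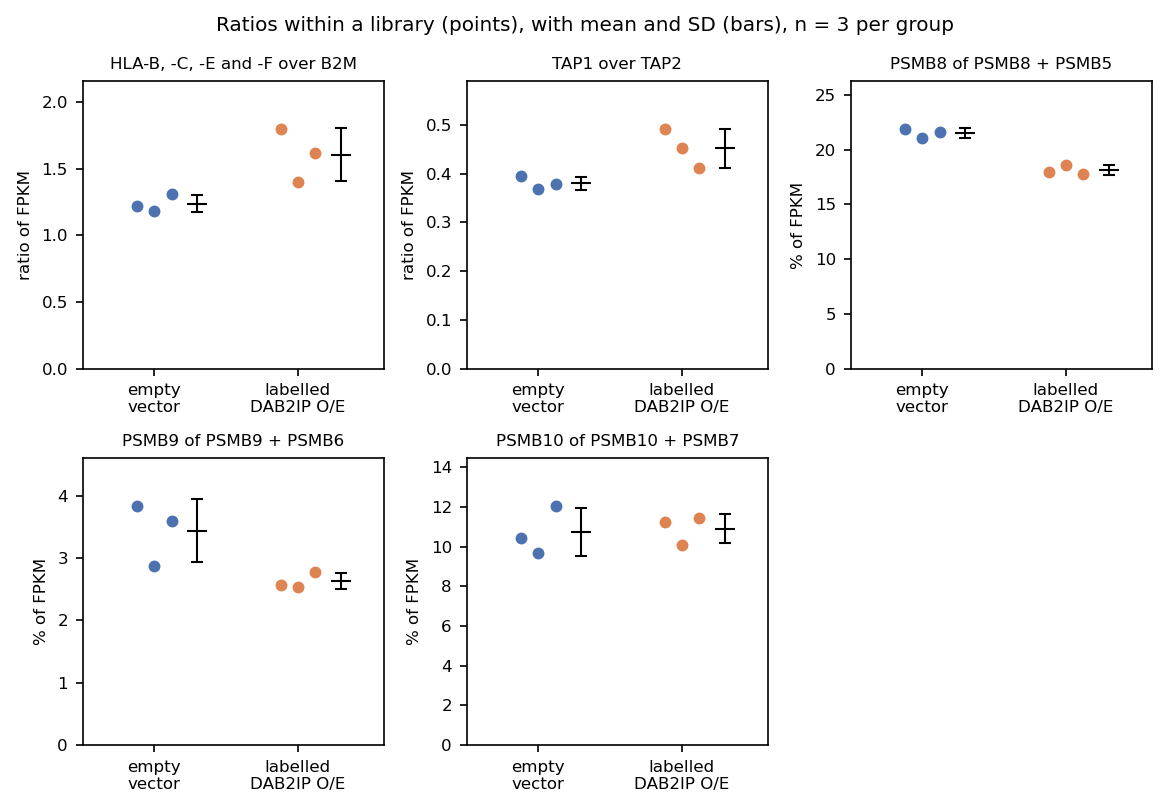
Ratios within each library (points; vertical axes from 0) for the 3 empty vector libraries (blue) and the 3 labelled DAB2IP O/E (orange), with mean and SD as bars. The heavy chain to B2M and TAP1 to TAP2 ratios are higher, and the PSMB8 and PSMB9 shares lower, in every library labelled O/E than in any empty vector library, while the PSMB10 shares overlap.

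Factors that act on class I promoters included 14 genes tested, with 1 called higher, 1 lower and a median log2 change of -0.07. Of all genes tested 9.29% were called higher and 9.17% lower. RELA, the NF-kB subunit p65, rose from 9.22 ± 0.229 to 11.6 ± 0.125 FPKM (SD, n = 3 each; log2 change 0.30, SE 0.04; limma, adjusted p = 0.00582) and was called in all 6 fits without 1 library. NFYB, a subunit of NF-Y, fell from 12.4 ± 1.05 to 9.72 ± 0.469 FPKM (-0.32, SE 0.07; limma, adjusted p = 0.0198), which was lost without O/E-labelled replicates 2 (0.0531) or 3 (0.0814) and without empty vector replicate 2 (0.0627). RFX5, the RFX subunit of the X box (-0.03; limma, adjusted p = 0.588), and IRF1, an ISRE-binding factor (-0.02, 0.886), did not pass. Named after their values were seen, the NF-kB gene NFKB1 (-0.22; limma, adjusted p = 0.0750) and ATF1 (-0.22, 0.0584) did not pass either. Both were called lower in limma-voom (0.0249 and 0.0237) and in the authors' deposited table (0.0204 and 0.0286).

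Interferon signalling genes were called in both directions. Of 13 tested genes of interferon gamma signalling, 2 were called higher and 1 lower, with a median log2 change of 0.00. The shares over all genes tested were 9.29% higher and 9.17% lower. PTPN2, a phosphatase that dampens cytokine signalling, fell from 17.9 ± 0.996 to 13.5 ± 0.450 FPKM (-0.38; limma, adjusted p = 0.00548), and SOCS3, a feedback inhibitor of cytokine receptors, rose from 29.4 ± 1.29 to 36.3 ± 0.611 FPKM (0.30, 0.00773). STAT2 rose as well (0.21; limma, adjusted p = 0.0331), a call that held in 1 of 6 fits without 1 library (0.0259 to 0.114; lost without every library except empty vector replicate 1, and at 0.0511 with equal library medians). Of 24 interferon-stimulated genes tested, 6 were called lower and 3 higher, with a median of -0.03, where 9.17% of all genes tested were called lower and 9.29% higher. One of the 6 is PSMB8, counted above with the immunoproteasome too. IFITM1, an antiviral membrane protein gene, fell from 35.5 ± 0.259 to 22.8 ± 0.402 FPKM (-0.62, SE 0.04; limma, adjusted p = 0.000310), though 32.5% of its exon bases are shared with IFITM2. UBE2L6, the conjugating enzyme for ISG15, was lower by a log2 change of -0.34 (limma, adjusted p = 0.00640) and PARP9 by -0.35 (0.00755). These 3 were called in all 6 fits without 1 library. The 3 called higher, named after their values were seen, were the guanylate-binding protein genes GBP2 (0.29; limma, adjusted p = 0.0195) and GBP3 (0.20, 0.0265) and the RNA sensor gene OAS1 (0.42, 0.0212). Without 1 library their adjusted p reached 0.0670 for GBP2 (lost without any O/E-labelled replicate), 0.110 for GBP3 (lost without O/E-labelled replicates 1 or 3 and empty vector replicates 2 or 3) and 0.0826 for OAS1 (lost without O/E-labelled replicates 2 or 3). IFITM3, the most abundant of those not called, was at 81.6 ± 5.65 and 76.7 ± 3.53 FPKM (-0.09; limma, adjusted p = 0.370).

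**Figure D5:**
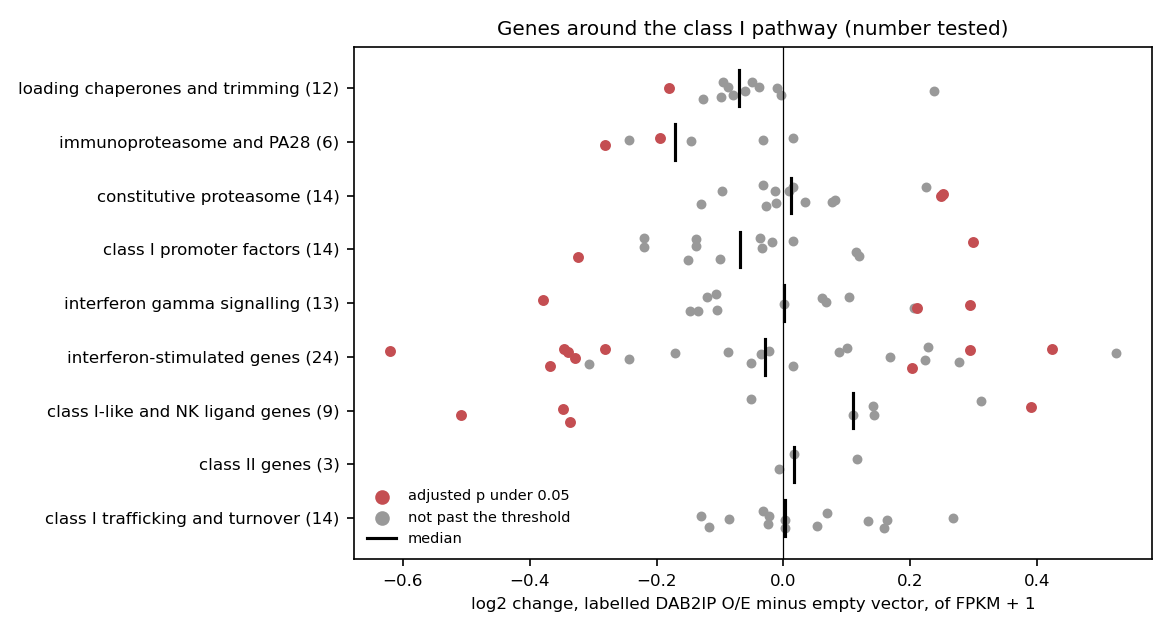
Log2 change (horizontal axis, libraries labelled DAB2IP O/E minus empty vector, of FPKM + 1) of every tested gene in 9 pathway lists (rows, with the number tested); red points have an adjusted p under 0.05, grey points do not, and black bars are list medians. Medians lie between -0.17 for the immunoproteasome and PA28 genes and 0.11 for class I-like and natural killer ligand genes.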

How the data were processed

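Poly-A RNA of OVCAR3 cells was made into stranded libraries, per the labels' protocols. The authors deposited FPKM per gene and library, and a comparison table with a mean normalised count signal per gene, log2 fold changes, p-values and test score statistics. Trimmomatic 0.32, TopHat2 2.1.1, Bowtie, DESeq2 1.12.4, R 3.3.1, GRCh38.p5 and hg19 appear per the submitters' processing notes, which give no roles; gene coordinates equal those of GENCODE 29 on GRCh38 for 25344 of 25344 identifiers of the same version, so GRCh38 is used here. The deposited log2 fold changes are empty vector over O/E (8277 genes recomputed, within 0.0113), and their sign was turned.

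The main test was limma 3.58.1 (R 4.3.3, mean-variance trend, 2-sided) on log2(FPKM + 1), 14761 genes averaging 1 FPKM or more; fold changes on this scale understate low genes. FPKM combined with the deposited mean counts gave whole reads (100% of values up to 1000 reads within 0.01 of whole), used for depths and for limma-voom, which called 4437 of 19022 genes. No 2 libraries were duplicates. Motifs were searched on both strands of RefSeq promoter windows.

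The 9 genes, the lists and the tests were chosen with earlier results of these data known. Named genes are the members, DAB2IP, up to 4 called genes per list by adjusted p and up to 2 others by level (not all of the latter are printed), a fixed set of neighbours and partners (1 of them is not reported here), and the 3 genes most like HLA-B. Alternatives were the pseudocount, the filter, scaling, trend, voom, a replicate block and leaving out each library.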

Additional observations from a re-analysis of the deposited data

How the results depend on the processing

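HLA-B and B2M kept their direction and their calls under all 10 settings that used every library (other pseudocounts, filters, scalings, trends, the replicate block and voom), with log2 changes of 0.23 to 0.28 and -0.33 to -0.30. Leaving out 1 library in turn gave 0.24 to 0.30 for HLA-B and -0.37 to -0.24 for B2M, 0 to 3 members called, 956 to 2731 genes called in all and 6 to 20 called among the pathway genes; the fewer libraries are part of each such fit. HLA-C ranged from 0.14 to 0.23 and passed in voom (0.18, adjusted p = 0.0482) and without empty vector replicate 3. HLA-E, TAP1, TAP2 and TAPBP passed under none of the settings run. Over all genes, voom called 4437 in place of 2725 (2281 higher and 2156 lower); the cause was not tested.

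Scaling moved the median of all genes by under 0.1 log2 units, and the 1371 genes called higher and 1354 lower became 1165 and 1686 with equal library medians and 1279 and 1476 with upper-quartile scaling. Signs that turned were of values near 0. With equal library medians the log2 change was -0.0128 for CD74, -0.0203 for PSMB5 and -0.0119 for PSMB10, and with upper-quartile scaling -0.00383 for PSMB5. Without 1 library, ranges were -0.0184 to 0.0196 for CALR, -0.0393 to 0.0104 for PSMB7, -0.00481 to 0.0505 for CD74, -0.0129 to 0.0423 for PSMB5, -0.0525 to 0.109 for PSMB10, -0.0701 to 0.0135 for ERAP1 and -0.0677 to 0.0276 for IRF1. The PSMB10 share differed by -0.340 to 0.849 percentage points. The cause was not tested.

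With the replicate number as a block, 2393 genes were called against 2725, and HLA-B (adjusted p = 0.0353) and B2M (0.0242) stayed called. Same-numbered libraries had deviations correlated at 0.12, 0.0992 and 0.0576 and each library correlated best with its own number, a hint from the data only, since the labels give no shared batch. Under the block CANX, PSME1 and ULBP2 lost their calls (adjusted p = 0.0656, 0.0581 and 0.0674).

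Read depth limits HLA-F and NLRC5, and 3 libraries a group limit every test. An exact permutation of 3 against 3 cannot go under 0.1.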

Other observations

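Ligands that natural killer cells read, and class I-like molecules, were called in both directions. Of 20 such genes in the list 18 were in the table, 9 were tested, 3 were called lower and 1 higher, with a median log2 change of 0.11. Over all genes tested 9.17% were called lower and 9.29% higher, and counts this small say little of the list. MICB, a ligand of the activating receptor NKG2D, was at 4.45 ± 0.747 FPKM with the empty vector and 2.81 ± 0.202 FPKM in the libraries labelled DAB2IP O/E (SD, n = 3 each; log2 change -0.51; limma, adjusted p = 0.0184). ULBP2, a second NKG2D ligand, fell from 3.11 ± 0.505 to 2.24 ± 0.111 FPKM (-0.34; limma, adjusted p = 0.0451), and PROCR, the class I-like endothelial protein C receptor, from 4.30 ± 0.304 to 3.16 ± 0.127 FPKM (-0.35, 0.0125). FCGRT, the heavy chain of the neonatal Fc receptor and a partner of B2M, rose from 1.87 ± 0.250 to 2.76 ± 0.299 FPKM (0.39; limma, adjusted p = 0.0261). Without 1 library PROCR was lost only without O/E-labelled replicate 3 (0.0591). MICB was lost without any O/E-labelled replicate or empty vector replicate 2 (up to 0.0664), FCGRT without O/E-labelled replicates 1 or 3 or empty vector replicates 1 or 2 (up to 0.0896), and ULBP2 without any library but empty vector replicate 3 (up to 0.130). Without the filter on low values FCGRT (0.0578) and ULBP2 (0.0904) were not called.

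None of the 14 tested genes of class I trafficking and turnover (median log2 change 0.00) and none of the 3 tested class II genes passed in limma or limma-voom with every library. At an unadjusted p under 0.05 limma gave 4 of the 14 and 0 of the 3. The share of all genes tested at that unadjusted threshold was not counted. At an adjusted p under 0.05 limma called 18.5% of all genes tested, so these counts say little of either list. Named after their values were seen, SYVN1, a ubiquitin ligase of the endoplasmic reticulum, passed in limma without O/E-labelled replicate 2 (0.0409) and TMEM129, another such ligase, without empty vector replicate 3 (0.0444). The authors' deposited table called TMEM129 as well (0.0442). CD74, the class II invariant chain, was at 23.4 ± 1.01 and 23.6 ± 0.631 FPKM (0.02, negative with equal library medians; limma, adjusted p = 0.839).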
